A study of Gallus gallus with 2 samples.

Results

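The receptors that place lymphocytes within tissues were examined in chicken DT40 cells knocked out for one or the other form of the histone variant H2A.Z. The set was GPR183, GPR65, S1PR1, CXCR4, CXCR5 and CCR7, chosen by gene symbol in the annotation of the array's platform. These 6 genes, of 13009 named genes on the array, were reported by 10 probe sets, and 5 of them had at least 1 probe set above the signal floor described below. DT40 is a B-cell line from a chicken bursal lymphoma, and H2A.Z-1 and H2A.Z-2 are closely similar histones encoded by separate genes. In H2A.Z-1 KO cells the H2A.Z-1 gene was lost and an H2A.Z-1 transgene was kept on until tetracycline shut it off, whereas in H2A.Z-2 KO cells the H2A.Z-2 gene was disrupted constitutively. Both cultures were given tetracycline at 2 µg/ml for 72 hours. Each genotype was represented by 1 array of total RNA, and no parental array was analysed here. The labels do not say whether either line was a single clone.

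All 6 proteins span the membrane and signal through heterotrimeric G proteins. Work in mouse and human lymphocytes gives their roles. CXCR4, CXCR5 and CCR7 bind chemokines that mark bone marrow and the germinal centre dark zone, the B-cell follicle and the T-cell zone. GPR183 binds an oxysterol and draws activated B cells to the edge of the follicle. S1PR1 reads the sphingosine-1-phosphate gradient that leads cells out of lymphoid organs. GPR65 senses extracellular protons and couples to cyclic AMP production. A B cell changes the mixture of these receptors as it matures or is activated.

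The values are probe set signals on a linear scale, and a signal under 98.2, the 60th percentile of both arrays, was set to that floor, because dim signals have no reliable order. For a probe set, a difference against a signal under the floor is therefore a lower bound, written as at least or as a bound. A bound given for a gene covers only its probe sets above the floor. It can shrink where a lower floor brings in dimmer probe sets. Ratios are H2A.Z-1 KO over H2A.Z-2 KO, so a positive log2 ratio means a higher signal in H2A.Z-1 KO cells, and the threshold was 2-fold. Each genotype has 1 array, so no replicate error can be given and nothing was tested. RNA came from whole cultures, in which fewer cells carrying a transcript and less transcript per cell cannot be told apart.

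The targeted genes went the way of the labels: H2AFZ, which encodes H2A.Z-1, had signals of 614.6 in H2A.Z-1 KO cells and 27642 in H2A.Z-2 KO cells, and H2AZ2 had 20911 in H2A.Z-1 KO cells and 42.1 in H2A.Z-2 KO cells. H2AFZ thus still read above the floor in H2A.Z-1 KO cells, on a probe set that may match several transcripts. Where the 2 probe sets lie relative to the deleted parts was not analysed here. Spiked-in transcripts had 59 probe sets above the floor, with a mean log2 ratio of 0.04, an SD of 0.19 and none past 2-fold. This spread leaves out any difference between cultures, so it is no scale for the gene ratios. Probe sets of the same gene differed by a pooled SD of 0.36 on the log2 scale over 3588 genes. All 9 B-cell markers on the array were above the floor in H2A.Z-1 KO cells and 8 in H2A.Z-2 KO cells, EBF1 being under it there. Of these 9, 5 were higher past 2-fold in H2A.Z-1 KO cells and none lower, with a median log2 ratio of 1.39. They were CD79B (8.76-fold, with 10163 in H2A.Z-1 KO cells and 1160 in H2A.Z-2 KO cells), IKZF3 (5.97-fold), EBF1 (at least 4.29-fold), CD74 (3.73-fold) and BTK (2.61-fold). Every probe set above the floor for CD79B, CD74 and BTK may match several transcripts, as may the brightest of IGLL1. IKZF3 was measured on 1 of its 2 probe sets. Its log2 ratio of 2.58 became 1.56 with a floor at the 40th percentile. Of the 9 markers 6 had a log2 ratio above 0, while IGLL1, PAX5 and PTPRC went the other way within 2-fold. IGLL1, the brightest, had 22691 in H2A.Z-1 KO cells and 33708 in H2A.Z-2 KO cells on its brightest probe set. PAX5 had a log2 ratio of -0.68, with 127.1 in H2A.Z-1 KO cells and 203.2 in H2A.Z-2 KO cells on 1 of its 4 probe sets. Over the alternatives PAX5 ran from -0.68 to 1.10. PTPRC had -0.17. The summed signals of the brightest probe sets, of which IGLL1 is the largest part, were 77868 in H2A.Z-1 KO cells and 61118 in H2A.Z-2 KO cells. The T-cell and NK-cell markers CD3E, CD4, CD28, LCK, ZAP70 and GATA3 were under the floor on both arrays. CD3D was bright, with 9211 in H2A.Z-1 KO cells and 7509 in H2A.Z-2 KO cells on a probe set that may match several transcripts. The 9 T-cell and NK-cell markers on the array summed to 9522 in H2A.Z-1 KO cells, where 1 was above the floor, and to 8394 in H2A.Z-2 KO cells, where 3 were. The summed signals of the myeloid, the erythroid and thrombocyte, and the fibroblast and epithelial lists ran from 84.6 to 555.0 in H2A.Z-1 KO cells and from 200.7 to 538.8 in H2A.Z-2 KO cells. The part of these markers in the values below was not tested. Beside the B-cell count, 2.87% of all named genes above the floor were higher past 2-fold in H2A.Z-1 KO cells.

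GPR183 and GPR65 were the receptors that differed past 2-fold, and both were lower in H2A.Z-1 KO cells. No receptor was past 2-fold higher there. Among all 7977 named genes above the floor, 3.8% were at least 2-fold lower in H2A.Z-1 KO cells and 2.87% higher by as much, 6.67% in all. The receptors were picked with these values known, so their count of 2 in 5 is a description and carries no weight against that background. The 5 measured log2 ratios, all but that of CXCR4 bounds, had a median of 0.32, beside -0.06 for all named genes.

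GPR183, the oxysterol receptor, had a signal of 35.2 in H2A.Z-1 KO cells and 577.7 in H2A.Z-2 KO cells on the probe set that exceeded the floor. The transcript was thus clear of the floor in H2A.Z-2 KO cells only, and was at least 5.88-fold lower in H2A.Z-1 KO cells, a log2 ratio of -2.56. A second GPR183 probe set, which carries A1 in place of S1 in its name, read 9.01 in H2A.Z-1 KO cells and 24.9 in H2A.Z-2 KO cells, both under the floor, and so gave no ratio.

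GPR65, the proton sensor, had 2 probe sets above the floor. The first read 63.9 in H2A.Z-1 KO cells and 847.0 in H2A.Z-2 KO cells, and the second 32.7 in H2A.Z-1 KO cells and 364.6 in H2A.Z-2 KO cells. Both were above the floor in H2A.Z-2 KO cells only, and their separate ratios were at least 8.63-fold and at least 3.71-fold lower in H2A.Z-1 KO cells. Their mean log2 ratio was -2.50, at least 5.66-fold lower. The brighter of them is of a kind that may match several transcripts, and on the other alone the log2 ratio was -1.89. The A1 probe set of GPR65 read 30.6 in H2A.Z-1 KO cells and 92.5 in H2A.Z-2 KO cells, just under the floor.

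CXCR4, the receptor for CXCL12, was the only one of the 6 above the floor on both arrays. It had signals of 1504 in H2A.Z-1 KO cells and 961.6 in H2A.Z-2 KO cells on its 1 probe set, a log2 ratio of 0.64. This is within 2-fold, and 6.07% of named genes had a higher ratio.

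CXCR5, the follicle-homing receptor, had the opposite array pattern to GPR183 and GPR65. Its 1 probe set read 155.1 in H2A.Z-1 KO cells and 14.9 in H2A.Z-2 KO cells, above the floor in H2A.Z-1 KO cells only. Because the brighter signal itself stood little above the floor, the H2A.Z-1 KO signal was higher by at least 1.58-fold, a log2 ratio of 0.66, which does not reach 2-fold. With the floor at the 40th percentile, a signal of 37.6, the log2 ratio became 2.04, past the threshold.

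S1PR1, the egress receptor, stood at the edge of detection on both arrays, with signals of 122.5 in H2A.Z-1 KO cells and 90.4 in H2A.Z-2 KO cells. The H2A.Z-2 KO signal was under the floor, so the log2 ratio of 0.32 is a bound, at least 1.25-fold. CCR7, the receptor for CCL19 and CCL21, was under the floor on both arrays in both of its probe sets. Their signals were 17.1 and 17.3 in H2A.Z-1 KO cells and 11.6 and 6.07 in H2A.Z-2 KO cells, and no ratio is given.

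**Figure D1:**
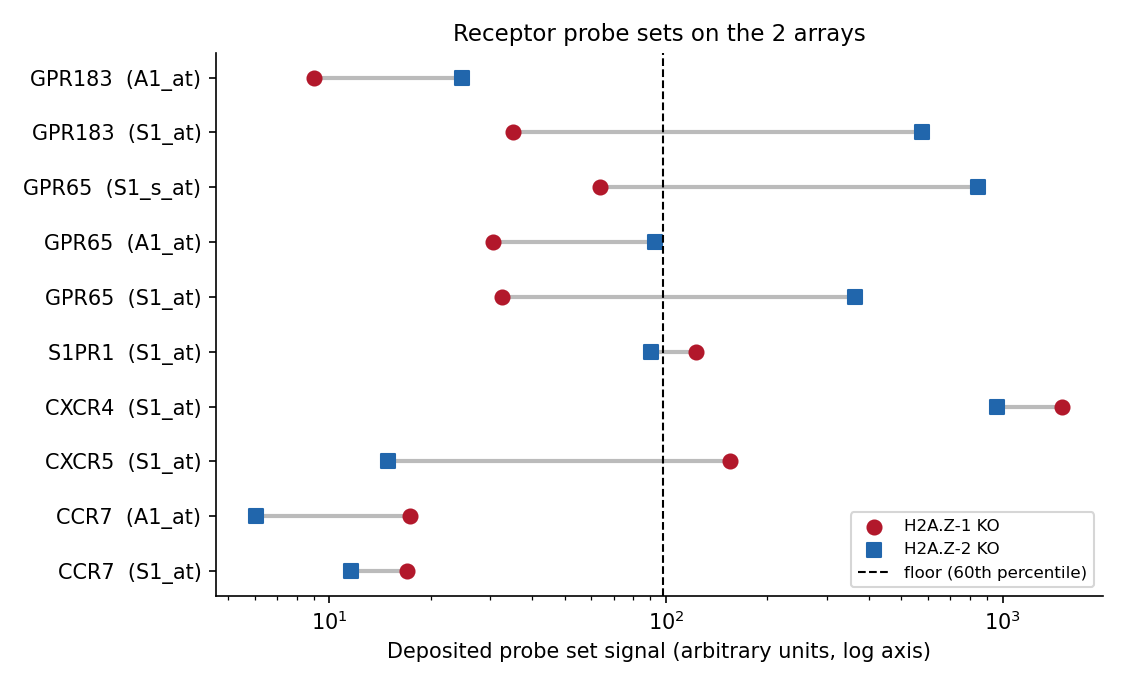
Deposited signal (log axis) of the 10 receptor probe sets on the H2A.Z-1 KO array (circles) and the H2A.Z-2 KO array (squares), with the floor of 98.2 as a dashed line and the end of each probe set's name in brackets. GPR183 and GPR65 cross the floor in H2A.Z-2 KO cells, CXCR5 crosses it in H2A.Z-1 KO cells, CXCR4 lies above it on both arrays and CCR7 below it on both.

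The calls for GPR183 and GPR65 held under median centring, quantile normalization and removal of the brightness trend, which left their log2 ratios between -2.55 and -2.39. They depended on the floor. At the 80th percentile, a signal of 567.9, the brightest GPR183 signal barely cleared it, and the log2 ratios shrank to -0.025 for GPR183 and -0.58 for GPR65.

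**Figure D2:**
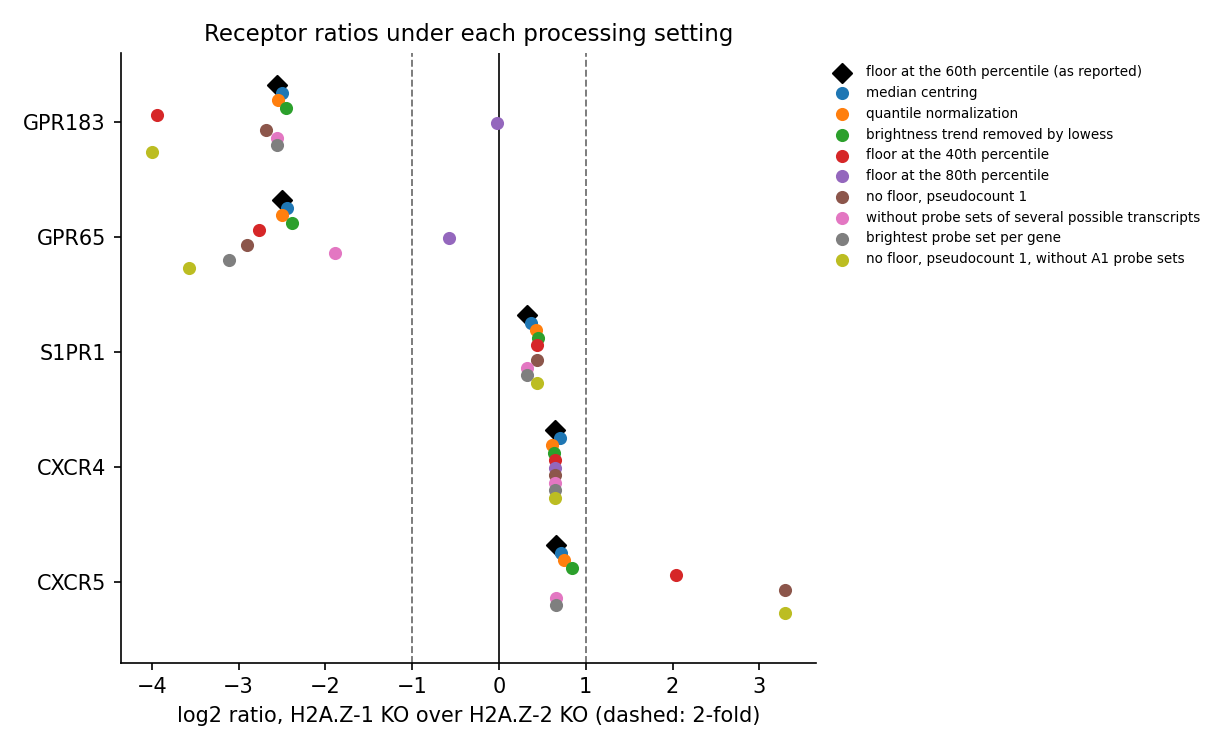
Log2 ratio, H2A.Z-1 KO over H2A.Z-2 KO, of the 5 measured receptors under the reported setting (diamonds) and each alternative (circles), with dashed lines at 2-fold. GPR183 and GPR65 stay left of 0 and CXCR4, CXCR5 and S1PR1 right of it, while the lower floor (40th percentile) puts GPR183 at -3.94 and CXCR5 at 2.04, and the higher floor (80th) puts GPR183 at -0.025.

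The genes closest in ratio, over 2 arrays and among 110 genes whose probe sets (at least 2) all passed 2-fold the same way, were the same pair for GPR183 and GPR65. CDH11, a cadherin, was at least 5.91-fold lower in H2A.Z-1 KO cells with a log2 ratio of -2.56, and KLF13, a Kruppel-like transcription factor, was at least 5.46-fold lower with -2.45. All of these ratios are bounds set by the floor, so they do not show that the differences are of like size.

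The receptors lie on separate chromosomes in the RefSeq gene table of assembly GRCg7b: GPR183 on 1, GPR65 on 5, CXCR4 on 7, S1PR1 on 8, CXCR5 on 24 and CCR7 on 27. The named genes next to GPR65 on one side were also lower in H2A.Z-1 KO cells. KCNK10, a potassium channel and the nearest, read 142.0 in H2A.Z-1 KO cells and 573.4 in H2A.Z-2 KO cells, a 4.04-fold difference and a log2 ratio of -2.01, on 1 probe set. SPATA7, a cilium protein of photoreceptors and the next, had geometric mean signals of 124.6 in H2A.Z-1 KO cells and 268.6 in H2A.Z-2 KO cells over 2 probe sets, at least 2.16-fold lower with a log2 ratio of -1.11. The 2 probe sets gave -1.40 and -0.82, the latter within 2-fold. KCNK10 was within 2-fold under the higher floor of 567.9 (-0.014), and SPATA7 after removal of the brightness trend (-0.96). On the other side, GALC and FLRT2 were under the floor on both arrays. Of the 10 genes within 5 places of GPR65, 5 were measured and these 2 were past 2-fold. Among all named genes above the floor, 6.67% were past 2-fold. SEL1L had a log2 ratio of -0.72 as a bound, ZC3H14 -0.14 and GTF2A1 0.01.

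Around the other receptors none of the measured genes within 5 places was past 2-fold. The measured genes beside GPR183 had log2 ratios of 0.05 for UBAC2, -0.27 for TM9SF2 and -0.16 for DOCK9, and no probe set was named for GPR18. DARS and SPOPL beside CXCR4 had 0.21 and -0.24, and HNMT had a bound of 0.27, with signals of 118.3 in H2A.Z-1 KO cells and 33.3 in H2A.Z-2 KO cells. BCL9L and DDX6 beside CXCR5 had 0.80 and 0.25, and CCDC84 and RPS25 had 0.15 and -0.04. DPH5 beside S1PR1 had -0.30 and SLC30A7 a bound of -0.20. Next to CCR7, SMARCE1 had 0.47 and KRT222, IGFBP4 and TNS4 gave no ratio. COL11A1 and OLFM3 beside S1PR1 and THSD7B beside CXCR4 also gave none.

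**Figure D3:**
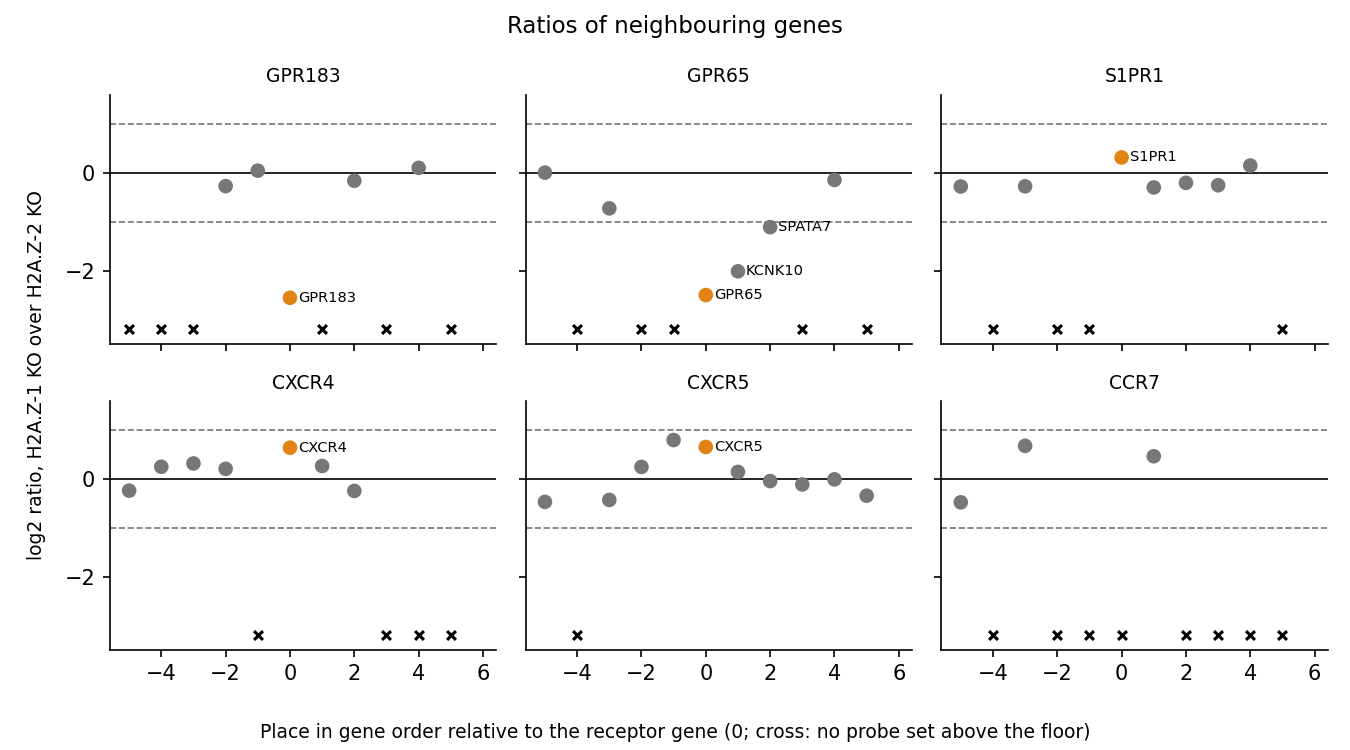
Log2 ratio, H2A.Z-1 KO over H2A.Z-2 KO, of each receptor gene (orange, at 0) and of the named genes up to 5 places away in gene order (grey), with dashed lines at 2-fold and crosses for genes with no probe set above the floor. Ratios against a signal under the floor are drawn at their bound. KCNK10 at -2.01 and SPATA7 at -1.11 follow GPR65, whereas the measured neighbours of the other receptors lie within 2-fold.

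Of 19 genes on the array for the ligands and the enzymes that make or break them, 9 were measured. Of the 13009 named genes, 7977 were. In the ligand list 1 gene was higher past 2-fold in H2A.Z-1 KO cells and none lower, and the median log2 ratio was 0.11. This list and those that follow were chosen with earlier results of these data known, so their counts are descriptions. Among all named genes above the floor, 2.87% were higher past 2-fold in H2A.Z-1 KO cells and 3.8% lower. SGPP2, a phosphatase of sphingosine-1-phosphate, had geometric mean signals of 357.9 in H2A.Z-1 KO cells and 158.0 in H2A.Z-2 KO cells, 2.27-fold higher. Its 2 probe sets had log2 ratios of 0.94, within 2-fold, and 1.42. Of the same pathway, the lyase gene SGPL1 read 2305 in H2A.Z-1 KO cells and 1211 in H2A.Z-2 KO cells, a log2 ratio of 0.93. The kinase gene SPHK1 read 401.6 in H2A.Z-1 KO cells and 243.3 in H2A.Z-2 KO cells, a log2 ratio of 0.72. ASAH1, a ceramidase that supplies sphingosine, lay just inside the threshold with a log2 ratio of -0.999, with signals of 1978 in H2A.Z-1 KO cells and 3955 in H2A.Z-2 KO cells.

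Among 20 related G-protein-coupled receptors 7 were measured, and their median log2 ratio was 0.06. CX3CR1, the receptor for fractalkine, read 5.43 in H2A.Z-1 KO cells and 461.8 in H2A.Z-2 KO cells and was at least 4.70-fold lower. Its log2 ratio of -2.23 became -2.05 with the floor at the 40th percentile, which brought in its dimmer probe set. LPAR5, a lysophosphatidic acid receptor, read 1768 in H2A.Z-1 KO cells and 782.6 in H2A.Z-2 KO cells, 2.26-fold higher, but within 2-fold at the lower floor, where a log2 ratio of 0.61 included its dimmer probe set. GPR174, a lysophosphatidylserine receptor, had 0.77 and P2RY8, which confines B cells to follicles in human, 0.06. CCR6 read 4.62 in H2A.Z-1 KO cells and 113.9 in H2A.Z-2 KO cells, so that its log2 ratio of -0.21 is bounded by the floor in the same way as that of CXCR5.

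Of 13 measured subunits of the G proteins below the receptors, 11 were within 2-fold, 1 was higher and 1 lower in H2A.Z-1 KO cells. The median log2 ratio was -0.14. For comparison, 2.87% of all named genes above the floor were higher past 2-fold and 3.8% lower. The inhibitory alpha subunit genes, through which chemokine receptors signal, had log2 ratios of -0.45 for GNAI1, -0.26 for GNAI2 and 0.04 for GNAI3. GNAS, the stimulatory alpha subunit, had -0.20, and GNA13, which restrains B-cell migration in mouse and human, 0.00. The gamma subunits GNG2 and GNG12 went opposite ways: GNG2 had geometric means of 748.6 in H2A.Z-1 KO cells and 335.8 in H2A.Z-2 KO cells, 2.23-fold higher, and GNG12 was at least 3.06-fold lower in H2A.Z-1 KO cells. Without a floor GNG2 had 0.80, within 2-fold.

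The list of receptor desensitization and trafficking genes had 17 measured members, none past 2-fold higher and 2 past 2-fold lower, with a median of -0.20. Of all named genes above the floor, 2.87% were past 2-fold higher and 3.8% lower. Both of the lower genes in the list encode RGS proteins, which speed the return of G proteins to their inactive state. RGS2 read 121.2 in H2A.Z-1 KO cells and 316.3 in H2A.Z-2 KO cells, 2.61-fold lower, and RGS18 read 694.9 in H2A.Z-1 KO cells and 1712 in H2A.Z-2 KO cells, 2.46-fold lower. The receptor kinase genes GRK2, GRK3 and GRK6 had log2 ratios of -0.09, -0.10 and 0.18. GRK4, also a receptor kinase gene, had 0.65, the largest positive ratio of the list. It read 272.0 in H2A.Z-1 KO cells and 173.4 in H2A.Z-2 KO cells on a probe set that may match several transcripts.

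Migration signalling below the receptors had 30 measured genes, 4 of them higher past 2-fold in H2A.Z-1 KO cells and none lower, and a median of 0.07. The shares among all named genes above the floor were 2.87% higher and 3.8% lower. RAC2, the Rac GTPase of blood cells, read 4431 in H2A.Z-1 KO cells and 484.6 in H2A.Z-2 KO cells, 9.14-fold higher on 1 probe set. PREX1, a Rac exchange factor driven by G protein beta-gamma subunits, read 3989 in H2A.Z-1 KO cells and 220.1 in H2A.Z-2 KO cells, a log2 ratio of 4.18, or 2.49 with the floor at the 40th percentile. PIK3R5, the regulatory subunit of the G-protein-driven PI3-kinase, was 2.54-fold higher after the floor. Its 3 probe sets disagreed in direction, from -0.33 to 2.56 on the log2 scale, so their mean is not a lower bound. With the floor at the 80th percentile PIK3R5 had 0.32. PDE4B, which degrades cyclic AMP, was higher by at least 2.49-fold. The catalytic subunit gene PIK3CG (0.04), the Rac exchange factor gene DOCK2 (-0.03), its partner ELMO1 (0.03), RHOA (0.12) and CDC42 (-0.08) had ratios near 0. Other genes within 2-fold lay further from 0, among them VAV2 (0.92), VAV3 (0.84) and PRKACB (-0.50). Of the 30 measured genes, 20 had a log2 ratio above 0.

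**Figure D4:**
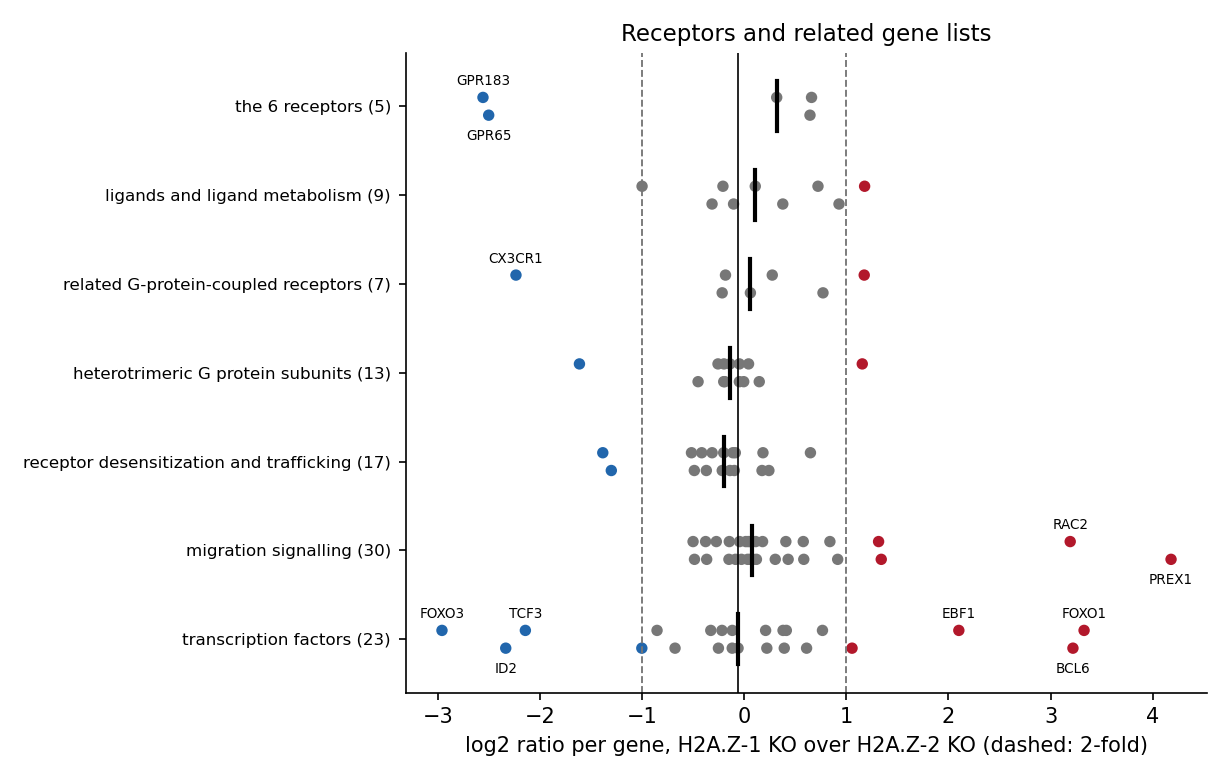
Log2 ratio per gene, H2A.Z-1 KO over H2A.Z-2 KO, for the 5 measured receptors and 6 lists of related genes, with the number of measured genes in brackets, short black bars at list medians, a thin line at the median of all named genes (-0.06) and dashed lines at 2-fold. Ratios against a signal under the floor are drawn at their bound. Medians lie between -0.20 and 0.32, and single genes such as PREX1 at 4.18, RAC2 at 3.19 and FOXO3 at -2.96 stand far from them.

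Transcription factors known in mouse or human to act on these receptors had 23 measured genes, with 4 past 2-fold in each direction and a median of -0.06. Beside these counts, 2.87% of all named genes above the floor were higher and 3.8% lower. The list was chosen with earlier results of these data known. KLF2, an activator of S1PR1 in mouse lymphocytes, had signals of 1407 in H2A.Z-1 KO cells and 1206 in H2A.Z-2 KO cells, a log2 ratio of 0.22. FOXO1, which acts upstream of KLF2, read 1633 in H2A.Z-1 KO cells and 162.6 in H2A.Z-2 KO cells, 10.0-fold higher. BCL6, a germinal centre repressor that acts on S1PR1 and GPR183, read 2357 in H2A.Z-1 KO cells and 139.7 in H2A.Z-2 KO cells on its brighter probe set, and both probe sets gave a mean log2 ratio of 3.22 as a bound. EBF1, a B-lineage factor, read 780.5 in H2A.Z-1 KO cells and 8.07 in H2A.Z-2 KO cells on its brighter probe set. SPI1, a factor of myeloid and B cells, had geometric means of 2791 in H2A.Z-1 KO cells and 1342 in H2A.Z-2 KO cells, a log2 ratio of 1.06. On the brightest SPI1 probe set alone it was 0.97, within 2-fold.

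On the lower side, FOXO3, a relative of FOXO1, read 91.7 in H2A.Z-1 KO cells and 763.0 in H2A.Z-2 KO cells on 1 of its 3 probe sets, the others being under the floor, and its log2 ratio of -2.96, a bound, became -1.23 with the floor at the 40th percentile. TCF3, an E-protein gene, had 3 probe sets with log2 ratios between -2.36 and -1.90, and its geometric mean signals were 310.2 in H2A.Z-1 KO cells and 1369 in H2A.Z-2 KO cells. The E-protein genes TCF12 and TCF4 leaned the other way within 2-fold. TCF12 had 0.39, with geometric means of 3285 in H2A.Z-1 KO cells and 2502 in H2A.Z-2 KO cells, and TCF4 a bound of 0.41. ID2 and ID3 encode proteins that bind E-proteins and keep them off DNA. ID2 was at least 5.04-fold lower in H2A.Z-1 KO cells. Its 3 probe sets above the floor disagreed, with log2 ratios from -3.67 to -0.28. Their mean of -2.33 became -2.07 with the floor at the 40th percentile. ID3 read 4.69 in H2A.Z-1 KO cells and 196.6 in H2A.Z-2 KO cells and just passed 2-fold as a bound, with a log2 ratio of -0.95 after median centring. EBF1 and FOXO3 were within 2-fold with the floor at the 80th percentile, at 0.46 and -0.43. The NF-kB gene NFKB1, the subunit family that acts on CCR7 and CXCR5, had -0.85 and REL 0.38. NFKB2 read 62.4 in H2A.Z-1 KO cells and 114.1 in H2A.Z-2 KO cells, so that its log2 ratio of -0.22 is a bound. Whether any of these factors bears on the receptor values was not tested.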

How the data were processed

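Signals of 38535 probe sets on 2 Affymetrix arrays were analysed. Per the submitters' processing notes the authors made them with MAS5; no version or setting is given in the sources used here. In the files the deposited intensity values are linear and have the same 2% trimmed mean, 500.2 for H2A.Z-1 KO cells and 500.1 for H2A.Z-2 KO cells, so a global difference in RNA per cell would not show. Per the labels' protocols RNA was labelled with biotin. Depth does not apply to arrays, and their number limits the precision. The 96 control probe sets were left out of counts.

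Genes were named from the platform annotation (27178 probe sets with 1 symbol, 177 with several and 11180 with none). For 26863 of the probe sets with 1 symbol, the symbol was updated by gene identifier from a RefSeq table of assembly GRCg7b. Each gene was given the mean log2 ratio over those of its probe sets that exceeded the floor on either array; where a gene has several, its signals are geometric means after the floor. Neighbours are protein-coding genes with a symbol in that table. Receptors and gene lists were chosen with earlier results of these data known. The text names the receptors, list and marker genes past 2-fold, the list genes with the largest ratio otherwise, 2 neighbours on either side of each receptor and the 2 genes closest in ratio; other genes, among them those 3 to 5 places away and list members within 2-fold, were chosen after their values were seen. Alternatives were median centring, quantile normalization, lowess (fraction 0.3, 3 iterations, statsmodels 0.14.6), a lower and a higher floor (40th and 80th percentile), a pseudocount of 1 without a floor, 3-fold and 1.5-fold thresholds, use of the brightest probe set only, exclusion of probe sets that may match several transcripts, and matching by updated symbol. The steps were tested on simulated data (Python 3.11.15, numpy 2.4.6, pandas 2.3.3). Changes were planted only in probe sets well above the floor. Recovery of changes near or under the floor, where most of the receptor signals lie, was therefore not checked. Promoter and protein sequences, and so the planned motif searches, were not analysed here.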

Additional observations from a re-analysis of the deposited data

How the results depend on the processing

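The floor decided most of what moved. A floor at the 40th percentile gave a log2 ratio of -3.94 for GPR183 and 2.04 for CXCR5. Thus 1 receptor was higher past 2-fold in H2A.Z-1 KO cells. Among named genes 312 were then higher in place of 229, and 641 lower in place of 303. With the floor at the 80th the log2 ratio was -0.025 for GPR183 and -0.58 for GPR65, so that 0 receptors were past 2-fold lower. The named genes past 2-fold numbered 133 higher and 92 lower, in place of 229 and 303. S1PR1 and CXCR5 were not measured there. With no floor the log2 ratio was -2.90 for GPR65 and 3.29 for CXCR5, and 1 receptor was past 2-fold higher. The named genes past 2-fold then numbered 905 higher and 1970 lower. The number of named genes measured changes with the floor, so the counts at different floors are not shares of a common total. An alternative chosen after seeing the data, no floor and no A1 probe sets, gave -4.00 for GPR183, -3.57 for GPR65 and 3.29 for CXCR5. Without probe sets that may match several transcripts GPR65 had -1.89, and with the brightest probe set -3.11. At 1.5-fold 2 receptors were higher, and 603 and 929 named genes passed; at 3-fold 91 and 111 did. No receptor past 2-fold changed sign under any alternative run. Neither did any of 30 other genes past 2-fold that the text names, in the alternatives that gave a ratio. Of these 30, 9 were within 2-fold under at least 1 such alternative. Outside these 9, SGPP2, CX3CR1, GNG12, RGS2, PDE4B and CD5 had no ratio with the floor at the 80th percentile. BTK, CD74, CD79B and H2AFZ had none without probe sets that may match several transcripts. For those genes the call was lost there rather than kept. A floor common to both arrays, or another threshold, cannot reverse the sign of a probe set's ratio. Unchanged signs under those alternatives therefore carry little weight. List medians moved by more than 0.36 for the ligand list (-0.40 at the 40th percentile) and the related receptors (-0.41 at the 40th and 0.76 at the 80th). List counts are small and moved by over 1.5 times under at least 1 alternative in every list. Matching by updated symbol gave the same receptors. No paired analysis was possible because each genotype has 1 array. Signals near or under the floor limit what can be compared. They include S1PR1, CXCR5 and CCR7, and also GPR183 and GPR65 in H2A.Z-1 KO cells.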

Other observations

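The S1 and A1 probe sets of GPR183 and GPR65 differed in whether they were measured, which touches the values without a floor, where all probe sets of a gene enter its mean. The array holds 2426 pairs of probe sets whose names differ only by S1 and A1. In 98 pairs both were above the floor, in 406 only the S1 probe set, in 177 only the A1 probe set and in 1745 neither. The pairs of GPR183 and GPR65 belong to the 406 and the pair of CCR7 to the 1745. What the A1 probe sets detect was not analysed here.

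CD5, a surface protein of T cells and some B cells, was listed as a T-cell marker and read 34.2 in H2A.Z-1 KO cells and 540.3 in H2A.Z-2 KO cells, at least 5.50-fold lower. Of the other 8 markers in that list, CD8A was also above the floor in H2A.Z-2 KO cells only, with 97.3 in H2A.Z-1 KO cells and 157.4 in H2A.Z-2 KO cells. CD3D was bright on both arrays, and CD3E, CD4, CD28, LCK, ZAP70 and GATA3 were under the floor on both. PRDM1, a regulator of plasma cells, read 6.75 in H2A.Z-1 KO cells and 102.3 in H2A.Z-2 KO cells, which the floor limits to a log2 ratio of -0.06.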
